A study of Mus musculus with 8 samples.

Results

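Vegfa, Adm, Bnip3, Bnip3l, Ddit4, Ndrg1, P4ha1, Ak4, Car9 and Ankrd37 are textbook targets of hypoxia-inducible factor 1 (HIF-1) whose products act outside glucose breakdown. They were chosen by name, and each was found once, under its exact name, among the 54419 gene models of a deposited expression table, so 10 genes of 54419 models are described. HIF-1 is a transcription factor made of an oxygen-labile alpha subunit and a stable beta subunit. With oxygen present, prolyl hydroxylases mark the alpha subunit for destruction, and when oxygen falls it accumulates, pairs with the beta subunit and binds a short motif near its target genes. The products of these targets feed blood vessel growth, removal of mitochondria, restraint of growth signalling, collagen maturation and pH control, and microglia, the resident macrophages of the brain, meet low oxygen in stroke.

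The cells were primary microglia from the brain of C57BL/6 mice aged postnatal day 2, and their poly(A) RNA was sequenced in 8 libraries. Per the labels, cells received for 24 h a CRISPR activation plasmid aimed at PARP14 (ACT-PARP14) or its control plasmid (ACT-Con), and the joint lack of oxygen and glucose (OGD), which models ischaemia in a dish, followed for 6 h. Each of 4 groups holds 2 libraries: Con (ACT-Con) and PARP14 (ACT-PARP14) carry no OGD in their titles, and OGD_Con (ACT-Con) and OGD_PARP14 (ACT-PARP14) carry it, although the protocol text gives OGD for every sample. The series text speaks of 2 independent experiments, but no label ties a library to an experiment or a separate culture, so a p-value here reflects how much these libraries vary, and that variation may be technical. All groups carry a transfected plasmid.

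Expression is given as FPKM, in which the fragments of a gene are divided by its length and by the library's depth. The model that holds Parp14 transcripts, deposited under the name Gm49730, had 61.4 and 50.7 FPKM in the Con pair, 12.2 and 11.5 in the PARP14 pair, 12.5 and 53.7 in OGD_Con, and 55.8 and 54.6 in OGD_PARP14. Both libraries labelled PARP14 lay below both labelled Con, which goes against an activated gene, and 1 OGD_Con library had a value like theirs, so every library is named here by its label. Of the microglia markers, models for 7 of 8 were detected. The Aif1 model is joined with Prrc2a and the Itgam model with Gm49368 and Gm45700, so their values are not of these markers alone. For Trem2, 2 models carry the name, and the model used, taken by exact name first, was listed at 0 in all 8 libraries. The other model was not examined, so this 0 does not show that Trem2 RNA was absent. The library labelled OGD_PARP14 replicate 2 stood apart: over the models tested, its log2(FPKM + 1) values correlated with those of the other libraries at r = 0.88 to 0.903, and every other pair reached at least 0.945. Each result that rests on it is therefore given with and without it. Estimated depth was 13.4 to 17.0 M fragments per library, with 13.5 M for that library.

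Stretches of promoter are printed for the genes whose values the results turn on. They belong to the 4 genes with the largest rise in OGD_Con, Vegfa, Ankrd37, Ak4 and Bnip3, and to Adm, which was not called there. RefSeq promoter entries (GRCm38.p6) were found for 8 of the 10 genes, all but Bnip3l and Ndrg1. Each is read on the strand of its gene, 5′ to 3′, from within the 250 bases before the RefSeq start and ending before the deposited gene model begins. Capitals mark the letters ACGTG or GCGTG, the core of the HIF-1 motif, on either strand, so a site on the other strand reads CACGT or CACGC. Overlapping sites run together.
Vegfa, chr17:46032378-46032627 (minus strand): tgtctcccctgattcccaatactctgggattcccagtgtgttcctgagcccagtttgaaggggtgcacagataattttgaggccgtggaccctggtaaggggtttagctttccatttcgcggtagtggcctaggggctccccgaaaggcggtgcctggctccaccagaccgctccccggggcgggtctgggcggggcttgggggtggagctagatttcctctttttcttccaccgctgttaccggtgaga
Ankrd37, chr8:45999868-46000100 (minus strand): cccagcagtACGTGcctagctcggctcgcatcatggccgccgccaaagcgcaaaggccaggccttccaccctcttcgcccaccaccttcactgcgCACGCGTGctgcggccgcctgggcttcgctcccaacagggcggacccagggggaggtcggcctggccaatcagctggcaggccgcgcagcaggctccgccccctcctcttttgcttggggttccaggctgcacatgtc
Ak4, chr4:101419039-101419276 (plus strand): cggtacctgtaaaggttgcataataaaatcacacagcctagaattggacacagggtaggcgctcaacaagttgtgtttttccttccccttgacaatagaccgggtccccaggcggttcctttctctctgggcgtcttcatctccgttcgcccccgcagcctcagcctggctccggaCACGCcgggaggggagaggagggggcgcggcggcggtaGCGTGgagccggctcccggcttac
Bnip3, chr7:138909520-138909756 (minus strand): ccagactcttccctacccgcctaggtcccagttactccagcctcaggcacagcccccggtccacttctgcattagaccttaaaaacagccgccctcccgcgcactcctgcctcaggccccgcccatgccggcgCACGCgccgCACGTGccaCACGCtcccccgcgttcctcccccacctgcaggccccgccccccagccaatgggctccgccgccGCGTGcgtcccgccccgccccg
Adm, chr7:110627407-110627656 (plus strand): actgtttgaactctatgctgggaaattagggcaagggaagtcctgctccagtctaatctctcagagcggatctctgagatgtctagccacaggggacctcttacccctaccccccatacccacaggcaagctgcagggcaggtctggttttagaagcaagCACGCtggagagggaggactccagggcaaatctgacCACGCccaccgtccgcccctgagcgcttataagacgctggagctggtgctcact

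The full 250 bases held 0 matches for Vegfa, 4 for Ankrd37, 2 for Ak4, 5 for Bnip3 and 2 for Adm. The fourth match of Ankrd37, 6 bases before the RefSeq start, lies past the stretch printed. In Bnip3 the run CACGTG reads as ACGTG on both strands and counts as 2 of its 5 matches. Among genes not printed, P4ha1 had 3 matches, Ddit4 had 2 and Car9 had 1. These letters are common: 57.1% of the 9326 promoters of tested models held at least 1 match in a window of that length, 28.6% held at least 2, 12.6% at least 3 and 5.29% at least 4. The share was 38.6% over all 32851 promoters of the table. A match describes letters, not a bound site, and its lack in the Vegfa window says only that these letters are not there.

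In the libraries with OGD other than OGD_PARP14 replicate 2, Vegfa, Ak4, Ankrd37 and Bnip3 stood 60.0-, 26.3-, 21.0- and 8.47-fold above the mean of the 4 libraries without OGD. Ddit4 and P4ha1 stood 1.98- and 1.96-fold above that mean, Car9, Ndrg1 and Bnip3l 1.30-, 1.26- and 1.25-fold, and Adm stood at 0.874 of it. All 10 genes passed the filter of at least 1 FPKM in at least 2 libraries, but Vegfa, Ak4 and Ankrd37 did so through OGD libraries only, so their passing depended on their being higher there. Limma was fitted to log2(FPKM + 1) of all 11146 models that passed, and a gene was called where its p, adjusted by Benjamini-Hochberg across them, was under 0.05. Fold changes on that scale are smaller than the ratios of FPKM for genes near 0, and they depend on the pseudocount. With pseudocounts of 0.1 and 5 in place of 1, the log2 fold change in OGD_Con against Con was 5.41 and 1.84 for Vegfa, 4.40 and 1.41 for Ak4 and 4.25 and 1.59 for Ankrd37, and with 5 it was 0.16 for Car9, all in the same direction as with 1.

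**Figure D1:**
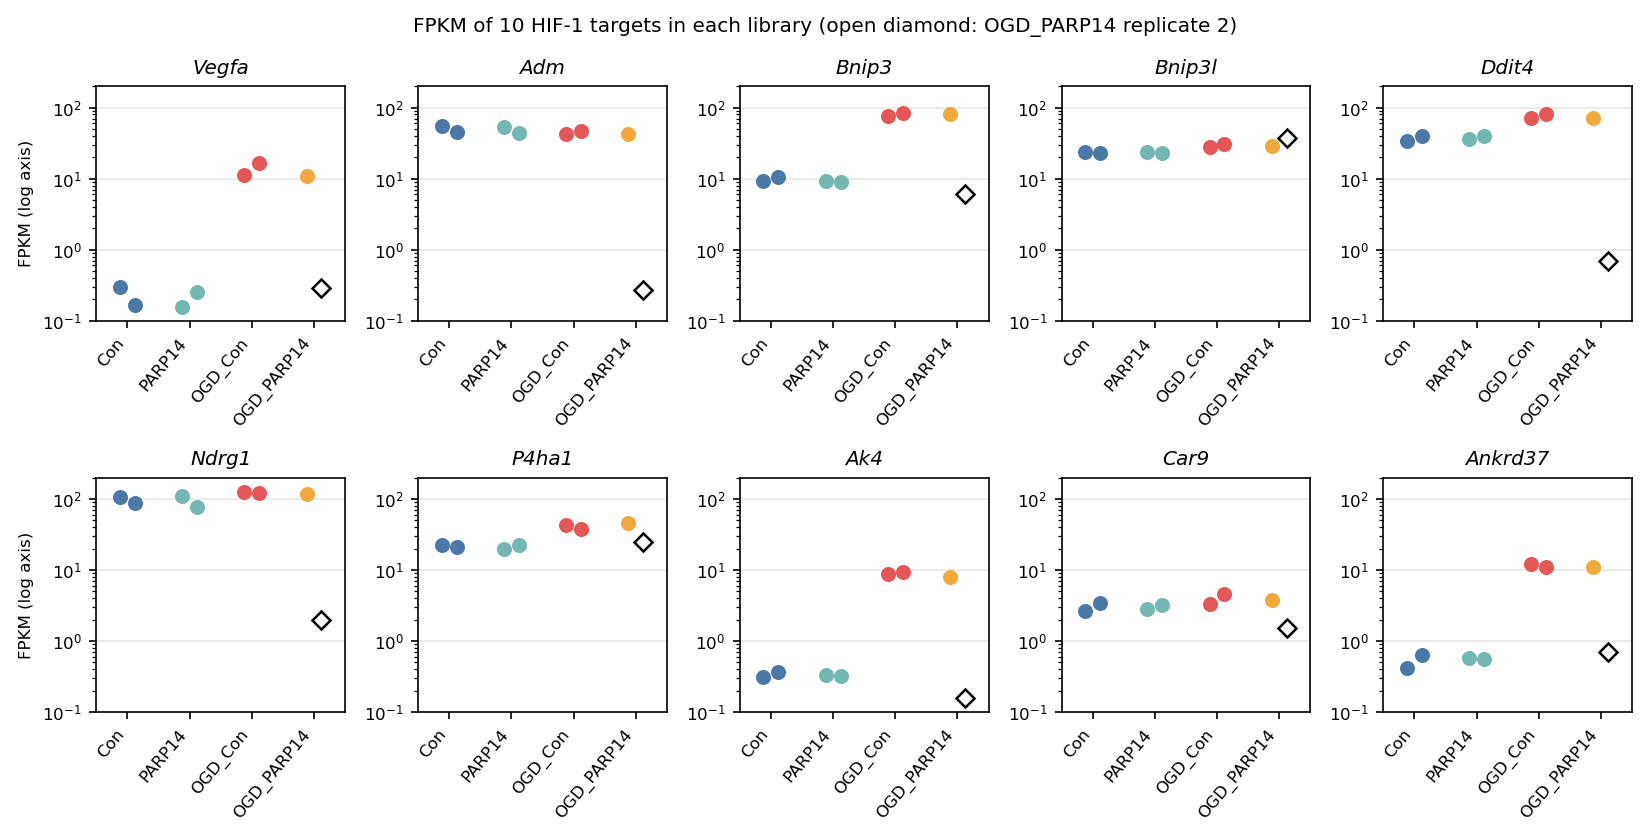
FPKM of each gene (log axis) in the 2 libraries of each group, with a point per library and an open diamond for OGD_PARP14 replicate 2. The other 3 OGD libraries lie above all 4 libraries without OGD for every gene shown except Adm and Car9, and the diamond lies below those 3 for every gene except Bnip3l.

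With all 8 libraries in the fit, 0 of the 10 genes were called in OGD_Con against Con, against 0.269% of all models. The raw limma p was under 0.05 for 5 of the 10 genes and for 2144 of the 11146 models. The library OGD_PARP14 replicate 2 belongs to neither group, so leaving it out kept the fold changes and changed the estimate of the spread. Then 7 of the 10 genes rose and 0 fell, against 10.7% of all models called higher and 1378 of 11146 called lower. The 7 include Vegfa, Ak4 and Ankrd37, which passed the filter through OGD libraries only. With OGD_PARP14 replicate 1 left out in place of replicate 2, 7 also rose. With only the 4 libraries compared, 6 rose, against 7.79% of models, and Bnip3l was no longer called (adjusted p = 0.0796 by limma). Both OGD_Con libraries lay above both Con libraries for 8 of the 10 genes, all but Adm and Car9, and 30.7% of all models did so. The median log2 fold change of the 10 genes was 0.93, against -0.02 over all models. In the same contrast the summed level of 8 microglia markers was 739 to 742 FPKM in Con and 591 to 616 in OGD_Con, and its part in these results was not tested. In such bulk libraries fewer cells of a type and less RNA per cell cannot be told apart.

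Vegfa and Adm encode secreted peptides that act on blood vessels. Coordinates here and for the other genes are as deposited, and 9 of the 10 models, all but Ankrd37, have the bounds of GENCODE M21 on GRCm38, although the submitters' notes name mm9. Vegfa (chr17:46016993-46032369 as deposited, minus strand), vascular endothelial growth factor A, was at 0.295 and 0.165 FPKM in the Con pair and 0.154 and 0.251 in the PARP14 pair, which rest on about 7 to 16 fragments. It was at 11.2 and 16.6 FPKM in OGD_Con, 11.1 in OGD_PARP14 replicate 1 and 0.285 in OGD_PARP14 replicate 2. The 3 high libraries did not overlap the other 5, and OGD_PARP14 replicate 2 lay among the libraries without OGD. The log2 fold change of Vegfa in OGD_Con against Con was 3.58 ± 0.95 (SE, limma adjusted p = 0.149) with 8 libraries and 3.58 ± 0.19 (adjusted p = 0.00131) without OGD_PARP14 replicate 2. The ratio of the mean FPKM, 13.9 ± 3.83 against 0.230 ± 0.0921 (SD, n = 2 each), was 60.6. The 2 OGD_Con libraries differed by 1.48-fold from each other, the widest gap within that group among the 10 genes.

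Adm (chr7:110627661-110629820, plus strand), the precursor of the vasodilator adrenomedullin, was at 55.7 and 45.0 FPKM in the Con pair, 53.9 and 44.2 in the PARP14 pair, 42.1 and 46.2 in OGD_Con and 41.9 in OGD_PARP14 replicate 1. The values of Con, PARP14 and OGD_Con overlapped, and OGD_PARP14 replicate 1 lay just below all of them. The value of Adm in OGD_PARP14 replicate 2 was 0.271 FPKM, about 5 fragments where the other libraries had 854 to 1209, and 154-fold below the lowest of them. Adm stood at -0.18 ± 0.15 on the log2 scale in OGD_Con against Con without that library (limma adjusted p = 0.425, 95% interval -0.55 to 0.20), so a log2 change of 1 in either direction lay outside the interval. With 8 libraries its SE was 1.48 and its adjusted p 0.966. Of the partners of both peptides, 3 of 9 VEGF ligands and receptors and 2 of 6 genes of the adrenomedullin system were expressed highly enough to be tested. Without OGD_PARP14 replicate 2, Vegfb, a related growth factor, rose by 0.31 ± 0.08 (limma adjusted p = 0.0476), and the co-receptors Nrp1 and Nrp2 and the adrenomedullin receptor genes Calcrl and Ramp2 were not called, at -0.02, 0.15, 0.20 and -0.06. The value of Ramp2 is that of a model joined with Vps25 and that of Nrp1 of a model joined with Mir1903. With 8 libraries none of these 5 genes was called.

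Bnip3 and Bnip3l encode related proteins of the outer mitochondrial membrane that bind LC3-type proteins and mark mitochondria for removal by autophagy. Bnip3 (chr7:138890836-138909519, minus strand) was at 9.30 and 10.5 FPKM in the Con pair, 9.13 and 8.88 in the PARP14 pair, 75.9 and 83.7 in OGD_Con and 80.6 in OGD_PARP14 replicate 1. In OGD_PARP14 replicate 2 it was at 6.15 FPKM, below all 7 others. In OGD_Con against Con its log2 fold change was 2.89, with an SE of 1.02 with 8 libraries (limma adjusted p = 0.211) and 0.09 without OGD_PARP14 replicate 2 (adjusted p = 0.000389). Mean FPKM was 8.06-fold higher in OGD_Con.

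Bnip3l (chr14:66985239-67008877, minus strand) kept within a much narrower range. It was at 24.0 and 23.0 FPKM in the Con pair, 23.4 and 23.2 in the PARP14 pair, 28.2 and 30.9 in OGD_Con, and 29.0 and 36.9 in OGD_PARP14. All 4 OGD libraries lay above all 4 others, and of the 10 genes only Bnip3l had its highest value in OGD_PARP14 replicate 2. The log2 fold change in OGD_Con against Con was 0.31 ± 0.14 with 8 libraries (limma adjusted p = 0.296) and 0.31 ± 0.08 without that library (adjusted p = 0.0429), close to the threshold. Of 10 other mitophagy and BCL-2 family genes tested, 0 were called with 8 libraries. Without that library 0 rose and 1 fell, against 10.7% of all models called higher and 1378 of 11146 lower. The gene that fell was Bcl2l13, another mitophagy receptor, which is named because it made up the count and was chosen after its values were seen. Mcl1, Pink1, Map1lc3a and Bcl2l1 had log2 fold changes of 0.30, 0.22, 0.35 and 1.05, none of them called, and the Pink1 model is joined with Mir7019 and Gm27646.

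Ddit4 and Ndrg1 encode stress proteins that restrain growth. Ddit4 (chr10:59949669-59951834, minus strand), also called REDD1, dampens the growth kinase mTORC1 through the TSC complex. It was at 34.4 and 39.5 FPKM in the Con pair, 35.7 and 40.4 in the PARP14 pair, 71.4 and 80.1 in OGD_Con and 71.1 in OGD_PARP14 replicate 1, so that these OGD libraries were all above the rest. In OGD_PARP14 replicate 2 it was at 0.701 FPKM, about 17 fragments, 49.0-fold below the lowest other library. In OGD_Con it was higher than in Con by 1.02 on the log2 scale, with an SE of 1.57 with 8 libraries (limma adjusted p = 0.783) and 0.11 without that library (adjusted p = 0.00665). Of 7 tested regulators near Ddit4 in the mTORC1 pathway, 0 were called with 8 libraries and 1 rose and 1 fell without it. Of all models, 10.7% were called higher and 1378 of 11146 lower without it. The regulator that fell was Sesn1 (-0.51 ± 0.12, limma adjusted p = 0.0411), and the one that rose was its relative Sesn2, named for the same reason. Tsc1, Tsc2 and Txnip stood at 0.33, -0.13 and -0.42 and were not called.

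Ndrg1 (chr15:66929318-66969640, minus strand), N-myc downstream regulated 1, had the highest mean FPKM of the 10 genes. It was at 106 and 88.7 FPKM in the Con pair, 110 and 77.6 in the PARP14 pair, 124 and 120 in OGD_Con and 117 in OGD_PARP14 replicate 1. The OGD libraries again lay above the others, but the 2 PARP14 libraries differed by more than the mean step between Con and OGD_Con. OGD_PARP14 replicate 2 had 1.96 FPKM, 39.5-fold below the lowest other library. The log2 fold change in OGD_Con against Con was 0.33 ± 1.55 with 8 libraries (limma adjusted p = 0.936) and 0.33 ± 0.19 without that library (adjusted p = 0.253, 95% interval -0.14 to 0.81). Ndrg3, the other tested member of its family, stood at -0.05 and was not called.

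P4ha1 (chr10:59323296-59373304, plus strand) encodes a catalytic subunit of collagen prolyl 4-hydroxylase, which stabilises the collagen helix. It was at 22.4 and 21.3 FPKM in the Con pair, 19.9 and 22.2 in the PARP14 pair, 43.0 and 37.3 in OGD_Con, and 45.4 and 24.6 in OGD_PARP14. All 4 OGD libraries lay above all 4 others, with OGD_PARP14 replicate 2 just over the highest of these. P4ha1 was higher in OGD_Con than in Con by 0.85 ± 0.27 on the log2 scale with 8 libraries (limma adjusted p = 0.19) and 0.85 ± 0.10 without OGD_PARP14 replicate 2 (adjusted p = 0.0077). Of the other subunits tested without that library, P4ha2 rose by 0.72 ± 0.17 (limma adjusted p = 0.038), though it passed the filter through OGD libraries only, and P4hb stood at 0.10 and was not called. Neither was called with 8 libraries.

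Ak4 (chr4:101419277-101466995, plus strand) encodes an adenylate kinase of the mitochondrial matrix. It was at 0.31 and 0.371 FPKM in the Con pair, 0.328 in each PARP14 library, 8.80 and 9.51 in OGD_Con and 8.03 in OGD_PARP14 replicate 1. OGD_PARP14 replicate 2, at 0.158 FPKM or about 9 fragments, lay below every other library. Ak4 had a log2 fold change of 2.92 in OGD_Con against Con, with an SE of 0.86 with 8 libraries (limma adjusted p = 0.17) and 0.07 without that library (adjusted p = 0.000262). Mean FPKM was 26.9-fold higher. Of 5 other adenylate kinase genes tested, 0 were called with 8 libraries and 0 rose without that library. Ak3, the GTP-using kinase of the same compartment, fell by 0.54 ± 0.09 there (limma adjusted p = 0.0153), from 11.6 and 13.0 FPKM in Con to 8.41 and 7.83 in OGD_Con. That fit called 1378 of 11146 models lower.

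Car9 (chr4:43506966-43513729, plus strand), a carbonic anhydrase of the cell surface, was low throughout. It was at 2.66 and 3.41 FPKM in the Con pair, 2.85 and 3.23 in the PARP14 pair, 3.36 and 4.66 in OGD_Con, and 3.82 and 1.55 in OGD_PARP14. The groups Con and OGD_Con overlapped, and OGD_PARP14 replicate 2 lay below all others. The log2 fold change in OGD_Con against Con was 0.31 ± 0.31 with 8 libraries (limma adjusted p = 0.652) and 0.31 ± 0.16 without that library (adjusted p = 0.226, 95% interval -0.10 to 0.72). A model on the opposite strand, Gm12454, shares 1782 bases with Car9 at 0.912 to 2.48 FPKM, and how strand was used in counting is not given in the sources used here. Of 5 tested genes of other carbonic anhydrases and acid extruders, 0 were called with 8 libraries and 3 rose without OGD_PARP14 replicate 2. Of all models, 10.7% were called higher in the latter fit. The 3 genes were the lactate carriers Slc16a3 (2.92 ± 0.13, limma adjusted p = 0.000923) and Slc16a1 (2.36 ± 0.15, adjusted p = 0.00197) and, by 0.31 ± 0.08, the carbonic anhydrase Car13 (adjusted p = 0.043).

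Ankrd37 (chr8:45996902-45999867, minus strand) encodes a small ankyrin repeat protein. It was at 0.415 and 0.629 FPKM in the Con pair and 0.575 and 0.552 in the PARP14 pair, about 6 to 9 fragments each. It was at 12.1 and 11.1 in OGD_Con, 11.1 in OGD_PARP14 replicate 1 and 0.713 in OGD_PARP14 replicate 2. The first 3 OGD libraries stood clear of the other 5, and the fourth lay just above the libraries without OGD. Ankrd37 had a log2 fold change of 3.05 in OGD_Con against Con, with an SE of 0.82 with 8 libraries (limma adjusted p = 0.152) and 0.10 without that library (adjusted p = 0.000389). Ufsp2, at 6.39 to 13.5 FPKM, overlaps the deposited model by 57 bases on the opposite strand.

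**Figure D2:**
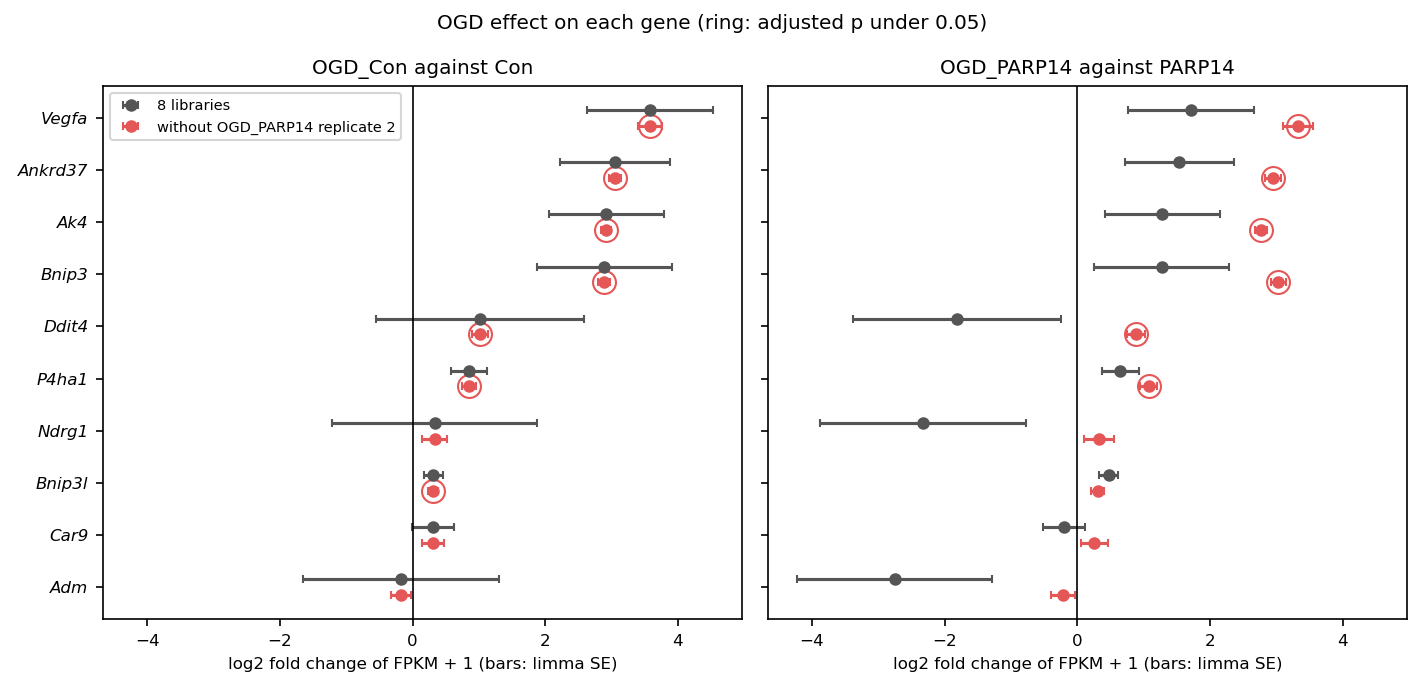
Log2 fold change of FPKM + 1 for each gene in OGD_Con against Con (left) and OGD_PARP14 against PARP14 (right), with limma SE bars. Grey points use 8 libraries and red points leave out OGD_PARP14 replicate 2. Rings mark an adjusted p under 0.05, which 7 red points have on the left and 6 on the right.

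Among the libraries labelled with ACT-PARP14, the 2 with OGD differed. OGD_PARP14 replicate 1 stood above both PARP14 libraries for 9 of the 10 genes and for 38.7% of all models. Its ratio to their mean was 54.7 for Vegfa, 24.5 for Ak4, 19.7 for Ankrd37, 8.94 for Bnip3, 2.16 for P4ha1 and 1.87 for Ddit4. OGD_PARP14 replicate 2 stood below both PARP14 libraries for Adm, Bnip3, Ddit4, Ndrg1, Ak4 and Car9, and for 55.2% of all models. With 8 libraries, limma called 0 of the 10 genes in OGD_PARP14 against PARP14, against 0.215% of all models. Of the 10 genes 1, Bnip3l, had an unadjusted p under 0.05, as did 1617 of the 11146 models. The log2 fold changes ran from -2.75 for Adm to 1.71 for Vegfa, with SEs of 0.14 to 1.57. Both OGD_PARP14 libraries lay above both PARP14 libraries for 4 genes, Vegfa, Bnip3l, P4ha1 and Ankrd37 (14.4% of all models), and below them for 1, Adm (26.5% of all models). For Vegfa and Ankrd37 this order is within counting error. They had about 13.3 and 8.9 fragments in OGD_PARP14 replicate 2 and about 14.7 and 8.7 in PARP14 replicate 2.

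In this contrast too, Vegfa, Ak4 and Ankrd37 passed the filter through OGD libraries only. Without OGD_PARP14 replicate 2 the contrast rests on a single OGD library, assumed to vary like the other groups. Then 6 of the 10 genes rose and 0 fell, against 5.54% of models called higher. They were Vegfa (3.33 ± 0.23), Bnip3 (3.03 ± 0.11), Ankrd37 (2.95 ± 0.12), Ak4 (2.76 ± 0.09), P4ha1 (1.08 ± 0.13) and Ddit4 (0.89 ± 0.14), with limma adjusted p from 0.000687 to 0.0254. Bnip3l, at 0.31 ± 0.09, missed the threshold (limma adjusted p = 0.105). Leaving out OGD_PARP14 replicate 1 in its place gave 1 gene called higher, Bnip3l (0.64 ± 0.09, limma adjusted p = 0.00695), and 4 called lower, against 10.9% of all models higher and 20.5% lower. These 4 were Adm (-5.29), Ndrg1 (-4.98), Ddit4 (-4.52) and Bnip3 (-0.49), with limma adjusted p from 0.000116 to 0.0278. Vegfa and Ankrd37 then stood at 0.10 and 0.13.

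Between both plasmids under OGD, 0 of the 10 genes were called in OGD_PARP14 against OGD_Con with 8 libraries, as were 0% of all models. Of these 10 genes 0 had an unadjusted p under 0.05, and 387 of all models did. The log2 fold changes ran from -2.79 for Ddit4 to 0.15 for Bnip3l, and the limma adjusted p was 0.571 to 0.652. Their 95% intervals reached from -6.63 to 1.06. Both OGD_PARP14 libraries lay below both OGD_Con libraries for 6 genes, Vegfa, Adm, Ddit4, Ndrg1, Ak4 and Ankrd37, and 19.2% of all models did so. Without OGD_PARP14 replicate 2 the fold changes shrank to between -0.28 for Vegfa and 0.18 for P4ha1. In that fit the contrast rests on a single OGD_PARP14 library, assumed to vary like the other groups, so it does not bound the plasmid effect. Without OGD_PARP14 replicate 1 it rests on the library that stood apart. The fold changes then ran from -5.49 for Ddit4 to 0.31 for Bnip3l.

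Without OGD, PARP14 differed from Con by -0.12 for Bnip3 to 0.04 for Ankrd37, and none of the 10 genes was called with 8 libraries (limma adjusted p = 1 for each, 0 with an unadjusted p under 0.05, against 0.00897% of models called). The same held without OGD_PARP14 replicate 2, against 0.0538% of models, and the 95% intervals then lay within -0.54 to 0.44. Only Bnip3 had both PARP14 libraries below both Con libraries, and 15% of all models did so. The difference between the OGD effect under each plasmid was itself tested as an interaction. It was called for 0 genes with 8 libraries (limma adjusted p from 0.824 to 0.864, 0 with an unadjusted p under 0.05, against 0.00897% of models) and for 0 without OGD_PARP14 replicate 2 (limma adjusted p = 1 for each, against 0.0807% of models). In the fit without that library it ran from -0.25 for Vegfa to 0.23 for P4ha1, with 95% intervals within -0.996 to 0.747. Without OGD_PARP14 replicate 1 it was called for 9 genes, each lower, and 18.5% of all models were called lower.

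**Figure D3:**
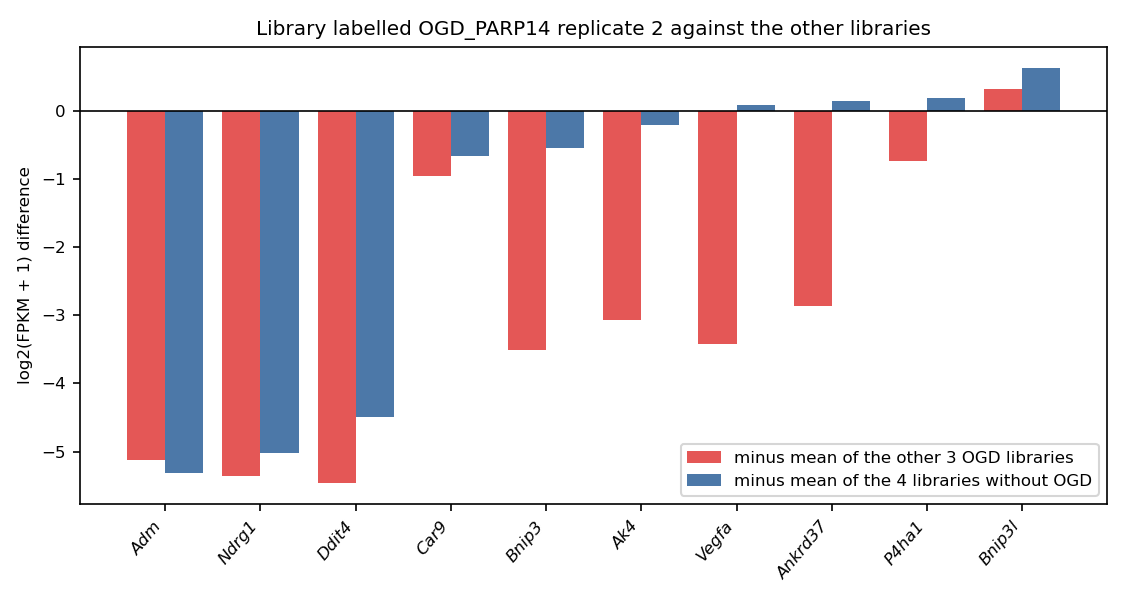
Difference in log2(FPKM + 1) between OGD_PARP14 replicate 2 and the mean of the other 3 OGD libraries (red), and between it and the mean of the 4 libraries without OGD (blue), for each gene. Adm, Ndrg1 and Ddit4 are below both means by over 4 units, and Vegfa, Ankrd37 and P4ha1 lie near the libraries without OGD.

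In OGD_PARP14 replicate 2 the genes stood in different places. Vegfa, Ankrd37, P4ha1 and Ak4 differed from the mean of the libraries without OGD by 0.08, 0.15, 0.19 and -0.20 on the log2 scale, and from the mean of the other 3 OGD libraries by -3.42, -2.86, -0.74 and -3.08. Adm, Ddit4 and Ndrg1 lay far below both means. They held under 0.1 of the lowest value of any other library, which 1.3% of all models did, a limit chosen after the values were seen. Bnip3 differed by -3.50 from the OGD mean and by -0.55 from the mean without OGD, and Car9 by -0.95 and -0.66. Bnip3l exceeded all 7 other libraries, as did 20.7% of all models. Here 9 of the 10 genes were lower than in any other OGD library, as were 49.6% of all models. For 6 it lay below all 7 others, and for 38.5% of models.

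Marker sums also differed in that library. The microglia markers summed to 1187 FPKM there and 591 to 748 in the other 7 libraries, and the markers of the oligodendrocyte lineage to 10.4 against 6.08 to 6.99. Astrocyte and neuron markers summed to 3.80 and 2.32, each under the range of the other 7 libraries (4.25 to 5.70 and 3.18 to 4.08). Endothelial markers summed to 4.14 against 4.89 to 7.52, but their members went opposite ways: Pecam1 was at 0.159 FPKM against 4.25 to 6.97 in the other libraries, Kdr at 2.27 against 0.102 to 0.324 and Flt1 at 1.59 against 0.128 to 0.275. Fibroblast and mural markers summed to 0.936 against 0.164 to 0.648, and peripheral leukocyte markers, with Cd3e listed at 0 in every library, to 34.8 against 35.5 to 45.9. Of that sum 33.6 FPKM came from 1 model that joins Ms4a14 and Ms4a7, while S100a8, at 1.05, and Ccr2, at 0.0969, were higher there than in any other library. Their part in the values of the 10 genes was not tested.

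Of 26 other HIF-1 targets outside glucose metabolism, 19 were tested. With 8 libraries limma called 2 of them higher in OGD_Con against Con, and 0.269% of all models in either direction. These 2 were Cxcr4, a chemokine receptor (3.51 ± 0.26, adjusted p = 0.0311), and Mxi1, a MYC antagonist (1.54 ± 0.18, adjusted p = 0.0488). Without OGD_PARP14 replicate 2, 15 rose and 1 fell, against 10.7% of all models called higher and 1378 of 11146 lower. The gene that fell was Plod1, a collagen lysyl hydroxylase, likewise chosen after its values were seen. The transcriptional repressor Bhlhe40 then rose by 4.48 ± 0.25 (limma adjusted p = 0.00149) and the lipid droplet gene Hilpda by 3.27 ± 0.30 (adjusted p = 0.00408). Bhlhe40, Egln3 and P4ha2, all among the 15, were under 1 FPKM in every library without OGD and passed the filter through OGD libraries only. The median over the 19 was 1.08, and over 20 glucose-metabolism targets, of which 0 were called with 8 libraries and 16 rose without OGD_PARP14 replicate 2, it was 1.13. The median over all models was -0.02.

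Cxcr4 was high in all 4 OGD libraries, OGD_PARP14 replicate 2 included. It was at 7.65 and 4.24 FPKM in the Con pair, 7.90 and 5.55 in the PARP14 pair, 75.2 and 75.7 in OGD_Con, and 78.5 and 80.1 in OGD_PARP14. Its log2 fold change in OGD_PARP14 against PARP14 was 3.39 ± 0.26 with 8 libraries (limma adjusted p = 0.0248). Bhlhe40, in contrast, was at 28.4 and 46.5 FPKM in OGD_Con, 30.3 in OGD_PARP14 replicate 1 and 2.96 in OGD_PARP14 replicate 2.

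**Figure D4:**
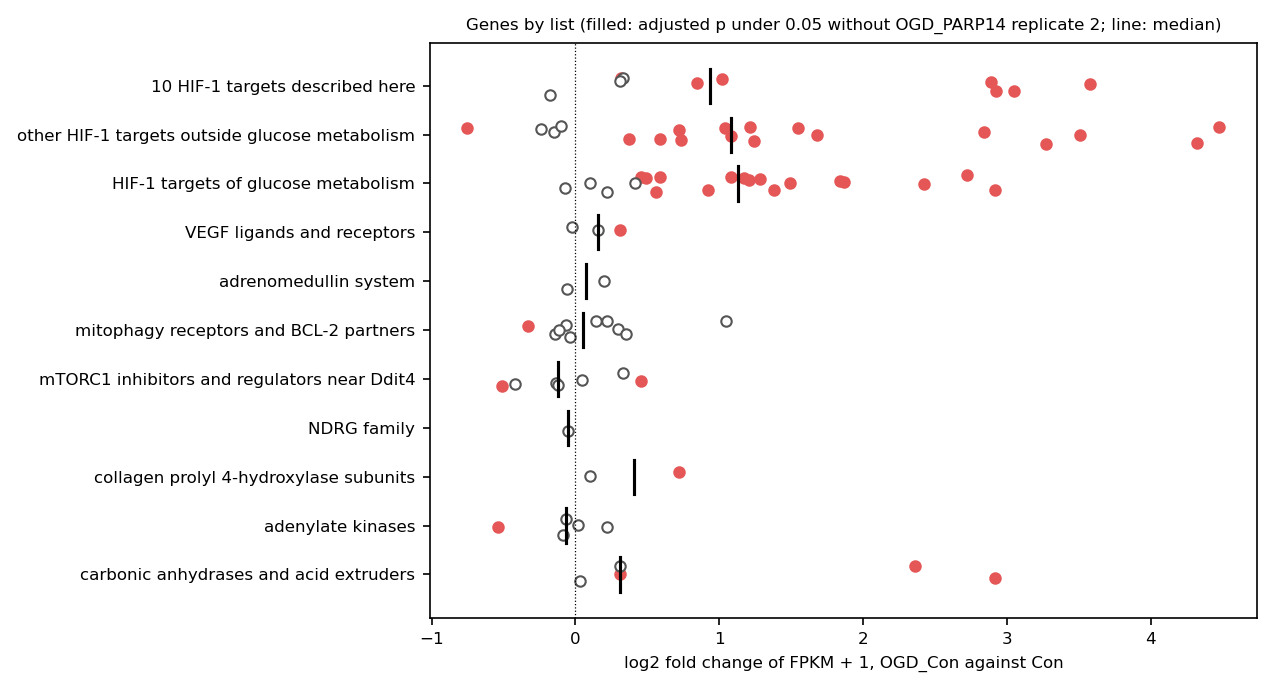
Log2 fold change of FPKM + 1 in OGD_Con against Con for each tested gene of each list, from the limma fit without OGD_PARP14 replicate 2. Filled points have an adjusted p under 0.05, black lines are list medians, and the medians of the 3 lists of HIF-1 targets lie at 0.93, 1.08 and 1.13.

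The 10 genes did not all follow each other across libraries. Each gene's log2 values were correlated with the mean of the other 9, as a description over 8 libraries that share the OGD contrast and OGD_PARP14 replicate 2. The correlation was 0.97 for Bnip3, 0.95 for Ak4, 0.92 for Vegfa and 0.91 for Ankrd37, and 0.44 for Adm and -0.03 for Bnip3l. Without that library it was 0.99 for Bnip3l and -0.57 for Adm. Among 6295 models with a mean of at least 5 FPKM, the 8 most like the mean pattern of the 10 genes were Yars, Nop14, Foxj3, Ccl3, Ewsr1, a model that joins Gm13166 and Zfp992, Csrnp1 and Slc12a2, with r from 0.995 to 0.998 over 8 libraries. Ccl3, a chemokine, was at 275 and 257 FPKM in the Con pair, 254 and 265 in the PARP14 pair, 565 and 663 in OGD_Con, and 595 and 180 in OGD_PARP14.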

How the data were processed

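RNA of primary mouse microglia was sequenced in 8 libraries, and the sample titles give 4 groups of 2. HISAT, StringTie, edgeR and the build mm9 are named, without versions, per the submitters' processing notes. The deposited table holds FPKM per gene model. Of its Ensembl models 96.2% have the bounds of GENCODE M21 on GRCm38, so coordinates are given as deposited. FPKM carries no counts, so depth and fragments per gene were estimated from the steps between low values, and they cover counting error only. StringTie shares fragments among overlapping models, which can shift single genes.

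Named models with at least 1 FPKM in at least 2 libraries (11146) were taken as log2(FPKM + 1). Limma 3.58.1 in R 4.3.3 fitted 4 group means with trend and robust off. P-values were adjusted by Benjamini-Hochberg over all models. Fits without OGD_PARP14 replicate 2, other filters, pseudocounts and normalizations, a replicate block and leaving out each library were alternatives. The fit was tested on simulated data. The 10 genes, the 10 gene lists, the marker lists and the tests were chosen with earlier results of these data known. The text names all 10 genes, up to 4 tested genes per list with the smallest p in OGD_Con against Con, and the 8 models most like the mean pattern. List genes named outside that rule, after their values were seen, are Bcl2l13, Sesn2, Plod1 and Egln3. Tables and plots were made in Python 3.11.15 (pandas 2.3.3, matplotlib 3.10.9).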

Additional observations from a re-analysis of the deposited data

How the results depend on the processing

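Against 0 genes called in each comparison with 8 libraries, leaving out 1 library gave 0 to 7 in OGD_Con against Con, 0 to 6 in OGD_PARP14 against PARP14, 0 to 10 in OGD_PARP14 against OGD_Con and 0 to 9 in the interaction. Every count above 0 among these came from leaving out a library of OGD_PARP14: without replicate 1 the counts were 7, 5, 10 and 9, and without replicate 2 they were 7, 6, 0 and 0. Many models were called in the fit without replicate 1 too: 10.7% higher in OGD_Con against Con, 10.9% higher and 20.5% lower in OGD_PARP14 against PARP14, 15.8% higher and 26% lower in OGD_PARP14 against OGD_Con, and 18.5% lower in the interaction. Except in OGD_Con against Con, counts without a library of OGD_PARP14 rest on the single library left in that group. They do not bound a plasmid effect. With only the libraries compared, 6 genes were called in OGD_Con against Con. With the replicate block 0 genes were called in each comparison. Same-numbered libraries deviated together at r = 0.014 to 0.124, not over 0.1 for every pair of groups, so the numbers were not taken to pair the libraries.

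Of the fold changes printed, 10 turned sign when 1 library was left out. In OGD_PARP14 against PARP14 the ranges were -0.49 to 3.03 for Bnip3, -0.20 to 2.76 for Ak4, -4.52 to 0.89 for Ddit4, -4.98 to 0.33 for Ndrg1 and -0.66 to 0.26 for Car9. In OGD_PARP14 against OGD_Con they were -3.50 to 0.0149 for Bnip3, -0.0219 to 0.31 for Bnip3l and -0.68 to 0.18 for P4ha1. For P4ha1 in the interaction the range was -0.62 to 0.23, and for Ankrd37 in PARP14 against Con it was -0.0591 to 0.14, the sign turning without Con replicate 1. The other 9 reversals came without a library of OGD_PARP14. Other filters, pseudocounts, quantile normalization and an intensity trend changed no direction and no call among the 10 genes, except that Car9 was not tested with a filter at 5 FPKM. The pseudocount moved the size of some changes by over 1.5 times, as for Vegfa in OGD_Con against Con, at 5.41 with 0.1 and 1.84 with 5. With 2 libraries a group, values that rest on fewer than about 20 fragments carry wide counting error.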
